A study of Mus musculus with 18 samples.

Results

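The genes described here are 43 cell cycle and DNA replication genes of the mouse, chosen by symbol as genes of S phase, G2 and mitosis. Each symbol matched 1 Entrez Gene ID, so that they are 43 of the 22792 genes in the count tables, and all 43 were among the 15282 genes with enough counts to be tested. RNA-seq was performed on 18 primary tumors of 4T1 cells, a Balb/c mouse line of triple-negative mammary carcinoma, 1 cell line in 1 inbred strain whose host cells are part of each library. Female Balb/c mice of 8 weeks received 300000 cells in a mammary fat pad, dosing with inhibitor began on day 7, and tumors were taken on day 21. The control group (Vehicle) held 5 tumors, the pan-PI3K inhibitor CLR457 (PI3Ki) was given in 4, the allosteric SHP2 inhibitor SHP099 (SHP2i) in 4, and both compounds together (Combo) in 5. Tumors are called by the replicate number of their label, and PI3Ki 4 and SHP2i 1 were not analysed here. The comparisons ask how far inhibition of PI3K, of SHP2 or of both was accompanied by other levels of the transcripts that dividing cells make.

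A cell that enters S phase makes the proteins that open replication origins, unwind DNA and supply nucleotides, and a cell in G2 makes the kinases, motors and centromere proteins that mitosis needs. Transcription of the first set is driven by E2F factors, which the retinoblastoma protein family holds in check until cyclin-dependent kinases release them, and transcription of the second set by B-MYB and FOXM1 with the MuvB core. PI3K and SHP2, the latter a phosphatase upstream of RAS and ERK, both lie in growth factor pathways that raise D cyclins and restrain the inhibitor p27.

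A few short elements are known from such promoters, and the RefSeq promoter table (GRCm38.p6, 250 bases before to 50 bases after the start) held 36 of the 43 genes. The CHR element (TTTGAA or TTCGAA, either strand), bound by the MuvB core, was present in 20 of the 36 promoters (55.6%) and in 19.4% of the promoters of all 17128 genes of the count tables that the promoter table holds. A CCAAT box (either strand), the site of NF-Y, was present in 27 (75.0%) against 42.3% of all. An E2F element (the word TTCCCGC or else TTCGCGC or else TTGCCGC or else TTGGCGC, either strand) was present in 13 (36.1%) against 14.2% of all. Among the 12 S phase genes with a promoter, 7 held the E2F element and 2 the CHR element, whereas among the 20 genes of G2 and mitosis 4 held the E2F element and 16 the CHR element. The shares are descriptions of letters in these windows, without a test, and a match is not a bound site. Shown here are the 180 bases before the start of 6 genes, 5′ to 3′ along the gene, with CHR, CCAAT and E2F letters in capitals. Mcm6 and Rrm1 stand for S phase, and the other 4 for G2 and mitosis. A gene with several starts was counted where any of its windows held the letters. The E2F words of both strands share letters in Mcm6, and a CCAAT box read on the other strand (ATTGG) shares letters with TTGGCGC in the window of E2f8, as CCAAT does with GCGCCAA, the same E2F word on the other strand, in those of Ect2 and Ccnb1. In Kif11 the CHR letters stand on the other strand, as TTCAAA. Letters counted outside the 180 bases are not shown, such as a further CHR element (TTTGAA) of Ccnb2 at base 5 from the start.
Mcm6 (chr1:128359706-128359885, minus strand): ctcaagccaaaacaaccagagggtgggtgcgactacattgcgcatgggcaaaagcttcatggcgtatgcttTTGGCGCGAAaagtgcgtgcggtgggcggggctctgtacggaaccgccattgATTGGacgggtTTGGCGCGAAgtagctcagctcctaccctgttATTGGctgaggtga
Rrm1 (chr7:102441515-102441694, plus strand): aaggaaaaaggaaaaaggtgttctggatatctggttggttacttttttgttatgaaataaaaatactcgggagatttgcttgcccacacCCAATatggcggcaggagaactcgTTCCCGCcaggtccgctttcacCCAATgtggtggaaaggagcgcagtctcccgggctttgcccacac
Cdk1 (chr10:69352913-69353092, minus strand): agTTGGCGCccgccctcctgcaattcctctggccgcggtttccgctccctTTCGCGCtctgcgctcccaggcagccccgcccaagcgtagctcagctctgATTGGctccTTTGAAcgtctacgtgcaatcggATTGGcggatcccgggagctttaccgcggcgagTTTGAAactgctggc
Ccnb2 (chr9:70421555-70421734, minus strand): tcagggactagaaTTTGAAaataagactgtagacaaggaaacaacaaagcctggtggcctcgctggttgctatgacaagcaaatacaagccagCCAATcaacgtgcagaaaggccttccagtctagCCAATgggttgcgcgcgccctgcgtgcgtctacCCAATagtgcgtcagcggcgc
Cdc20 (chr4:118437344-118437523, minus strand): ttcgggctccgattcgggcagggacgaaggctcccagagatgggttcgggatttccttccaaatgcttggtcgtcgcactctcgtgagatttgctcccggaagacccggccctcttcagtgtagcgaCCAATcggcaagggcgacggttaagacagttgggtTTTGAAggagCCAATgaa
Kif11 (chr19:37376202-37376381, plus strand): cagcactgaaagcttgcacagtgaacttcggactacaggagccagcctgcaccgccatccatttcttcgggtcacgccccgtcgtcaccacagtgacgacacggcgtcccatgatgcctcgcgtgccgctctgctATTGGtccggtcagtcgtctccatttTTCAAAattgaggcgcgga

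Counts per tumor totalled 21.16 M to 26.62 M with a median of 23.52 M, and replicates of a group differed by more than sampling noise. Levels are given as CPM (a gene's counts for every M of counts in its library, with library sizes scaled by TMM). The keratin genes Krt8 and Krt18, which mark the carcinoma cells, had at least 7582 and 5315 counts in every tumor, and all 15 epithelial marker genes had counts in all 18. Markers of macrophages, neutrophils, endothelial cells, fibroblasts, T cells and B cells were detected too, so that the transcripts of the 43 genes may come from any dividing cell of a tumor. In such bulk samples fewer dividing cells and less RNA per dividing cell cannot be told apart. Combo tumors 3 and 4 stood apart by B cell genes (638 and 279 CPM summed over 10 genes, 10 to 48.4 CPM in the other 3 Combo tumors), as did PI3Ki 3 and 5 (197 and 326 CPM, 6.95 and 45 CPM in PI3Ki 1 and 2). PI3Ki 2 stood apart by neutrophil genes (2540 CPM summed over 10 genes, 384 to 542 CPM in the other PI3Ki tumors), and all PI3Ki tumors by skeletal muscle genes (918 to 2230 CPM summed over 15 genes, 12.4 to 121 CPM in Vehicle). Some of the genes overlap another counted gene (among those given in full, E2f1 with Necab3, Foxm1 with Tex52, Cdc20 with Elovl1, Kif20a with Brd8 and Cdc23, Prc1 with Rccd1, and Mybl2 with the microRNA gene Mir7003), Pcna and Ccnb2 have named pseudogenes, and the sources used here do not give the strand setting of the counting, so that a part of their counts may belong to the neighbour or copy.

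The 43 genes were lower on average in Combo tumors than in Vehicle tumors, and they were spread over a wide range there. The level of the set in a tumor was taken as the mean over the 43 genes of log2 CPM minus the Vehicle mean of each gene. It was 0.06, -0.03, -0.11, 0.12 and -0.03 in Vehicle tumors 1 to 5, and -0.05, -0.13, 0.15 and 0.06 in PI3Ki tumors 1, 2, 3 and 5. In SHP2i tumors 2 to 5 it was 0.26, 0.41, 0.23 and -0.05, and in Combo tumors 1 to 5 it was 0.13, -0.15, -0.42, -0.69 and -1.07. Combo tumors 3, 4 and 5 were thus below every other tumor, Combo 2 was close below the lowest tumor of the other groups, and Combo 1 was close above the highest Vehicle tumor. SHP2i tumors 2, 3 and 4 were the highest 3 of the 18, and SHP2i 5 lay within the Vehicle range.

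**Figure D1:**
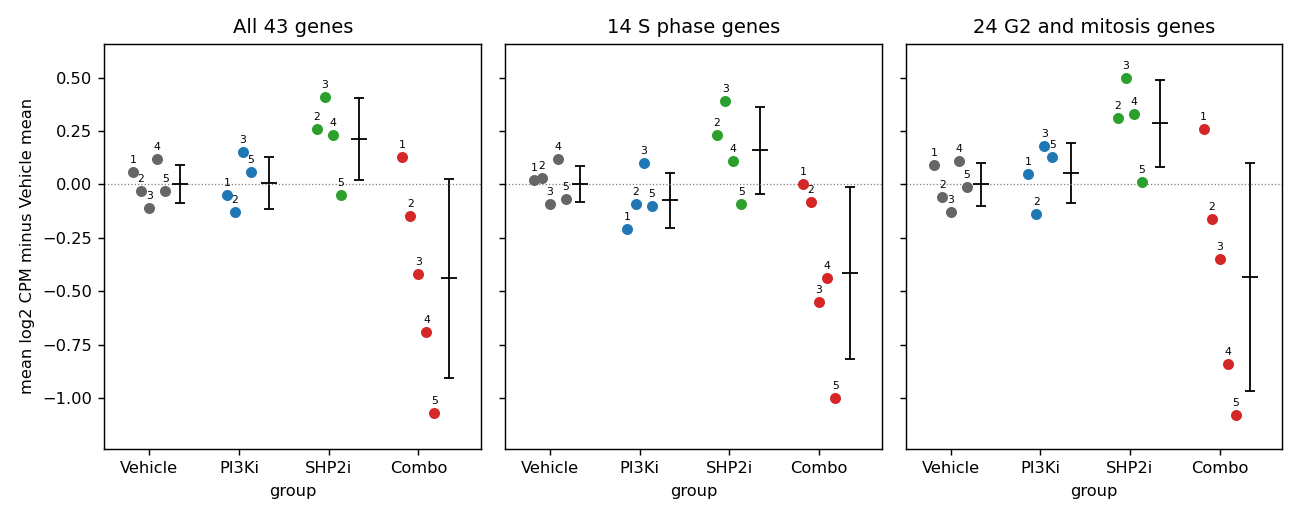
Mean log2 CPM minus the Vehicle mean in each tumor (points, numbered by replicate) by group, for all 43 genes, the 14 S phase genes and the 24 genes of G2 and mitosis, with mean ± SD (bars, n = 5, 4, 4 and 5 tumors). Combo tumors run from 0.13 to -1.07 over the 43 genes, whereas Vehicle tumors stay between -0.11 and 0.12.

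The same order was seen gene by gene. In Combo 5, 42 of the 43 genes were below the lowest Vehicle tumor, as were 39 in Combo 4, 37 in Combo 3 and 25 in Combo 2. In Combo 1 only 5 genes were below that range and 20 above it. Combo 5 held the lowest value of all 18 tumors for 40 genes, and SHP2i 3 the highest for 33. In SHP2i tumors 2, 3, 4 and 5, 31, 39, 27 and 6 genes exceeded the highest Vehicle tumor. The spread between tumors of a group, as the median over the 43 genes of the SD of log2 CPM, was 0.12 in Vehicle, 0.15 in PI3Ki, 0.22 in SHP2i and 0.52 in Combo. Over all genes tested the same median was 0.16, 0.21, 0.18 and 0.22, so that Combo tumors were spread wider in these genes than in the median gene.

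**Figure D2:**
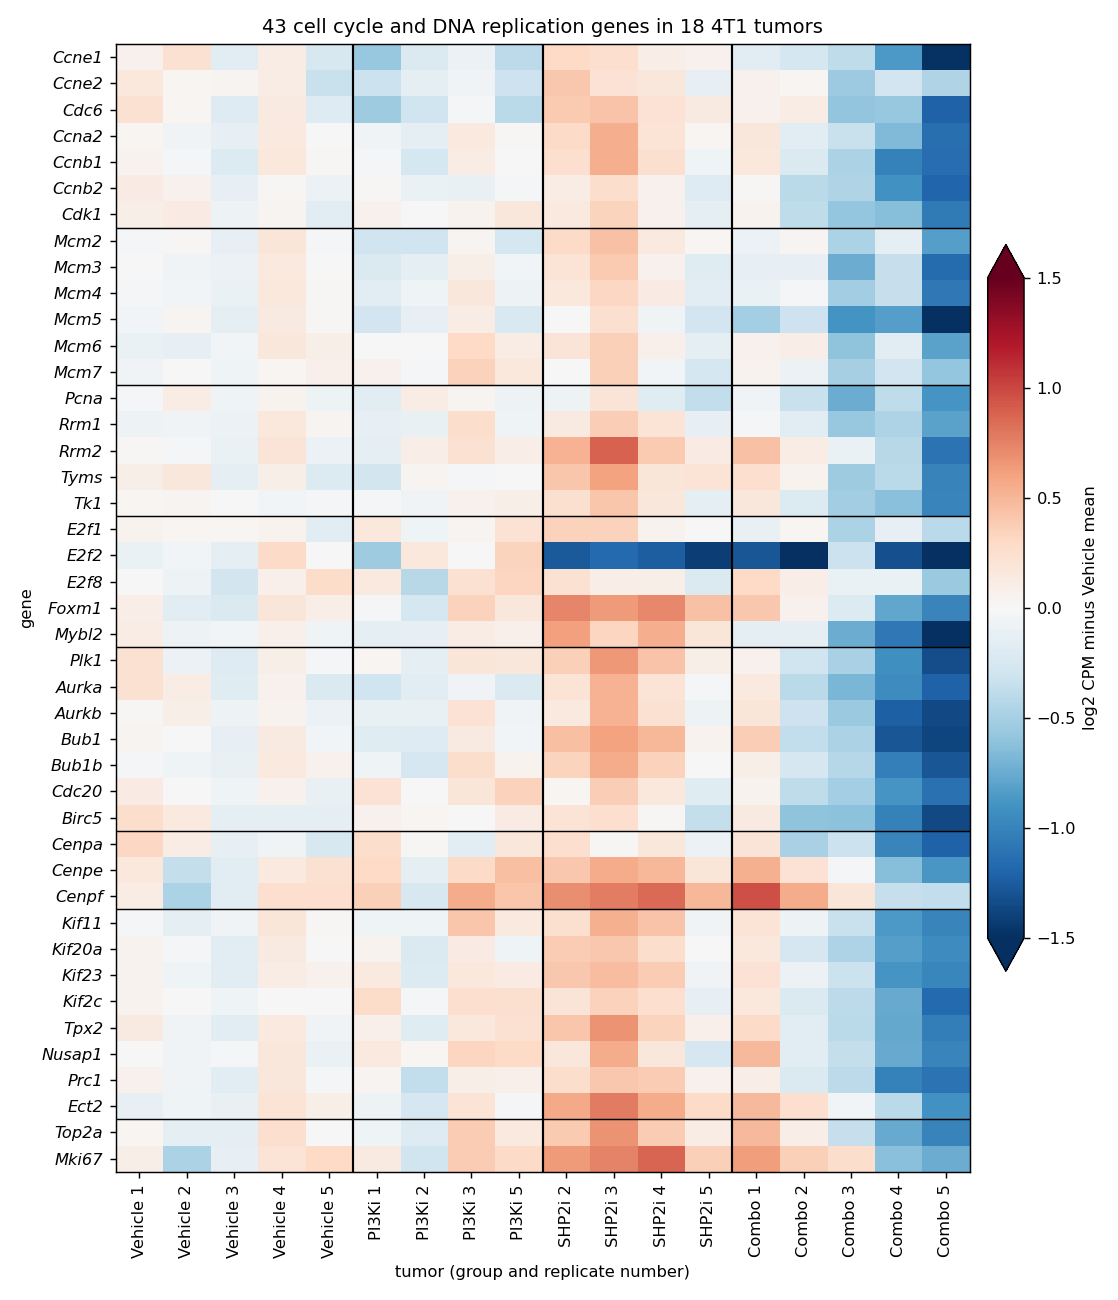
Log2 CPM minus the Vehicle mean (color, clipped at -1.5 and 1.5) of the 43 genes (rows, in the order of their roles, lines between role groups) in the 18 tumors (columns). Combo 3, 4 and 5 are blue in almost every row, SHP2i 2, 3 and 4 are red in most, and E2f2 is blue in SHP2i and Combo alike.

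S phase genes (6 MCM genes, 5 of clamp and nucleotide synthesis, Ccne1, Ccne2 and Cdc6) and genes of G2 and mitosis had a similar mean level in Combo, at -0.41 ± 0.40 and -0.43 ± 0.54 (SD, n = 5). Single tumors set the sets apart more than the group means did. In Combo 1 the S phase genes were at 0.00 and the genes of G2 and mitosis at 0.26, in Combo 3 at -0.55 and -0.35, and in Combo 4 at -0.44 and -0.84. Combo 5 was the lowest of the 18 tumors in both sets. In SHP2i tumors 2 to 5 the S phase genes were at 0.23, 0.39, 0.11 and -0.09 and the genes of G2 and mitosis at 0.31, 0.50, 0.33 and 0.01.

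In Combo against Vehicle, 18 of the 43 genes were lower and 0 higher at an adjusted p under 0.05 (edgeR quasi-likelihood test over all 18 tumors, Benjamini-Hochberg over all genes tested). That is 41.9% lower, beside 19.7% of all genes tested. The median log2 fold change of the 43 genes was -0.38, with a range from -1.29 to 0.27 and 41 values below 0, and the median of all genes tested was 0.02. At an unadjusted p under 0.05, 24 were lower (23.4% of all genes tested), and 23.9% of all genes tested were higher at the adjusted threshold. An absolute log2 fold change over 1 was passed in addition by 1 gene, E2f2 (6.86% of all genes tested were lower by this rule). All 5 Combo tumors lay below all 5 Vehicle tumors for 4 genes (Mcm3, Mcm5, E2f2 and Mybl2), beside 13.4% of all genes tested.

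The number of genes called depended on which tumors and groups were fitted. It was 31 without Combo 1, 23 without Combo 2, 10, 8 and 9 without Combo 3, 4 or 5, and 11, 11, 14, 9 and 14 without Vehicle 1 to 5. It was 10 when the fit held Vehicle and Combo alone, and 3 (Mcm5, Pcna and E2f2) without both Combo 3 and 4. Ccnb2, Cdk1, Mcm5, Pcna, E2f2, Mybl2 and Cdc20 passed whichever single Vehicle or Combo tumor was left out, and each of the other 11 genes did not pass without at least 1 of these tumors. Here and below, shares of all genes tested are given for the edgeR fit of all 18 tumors alone. Counts from other fits thus stand without such a share.

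**Figure D3:**
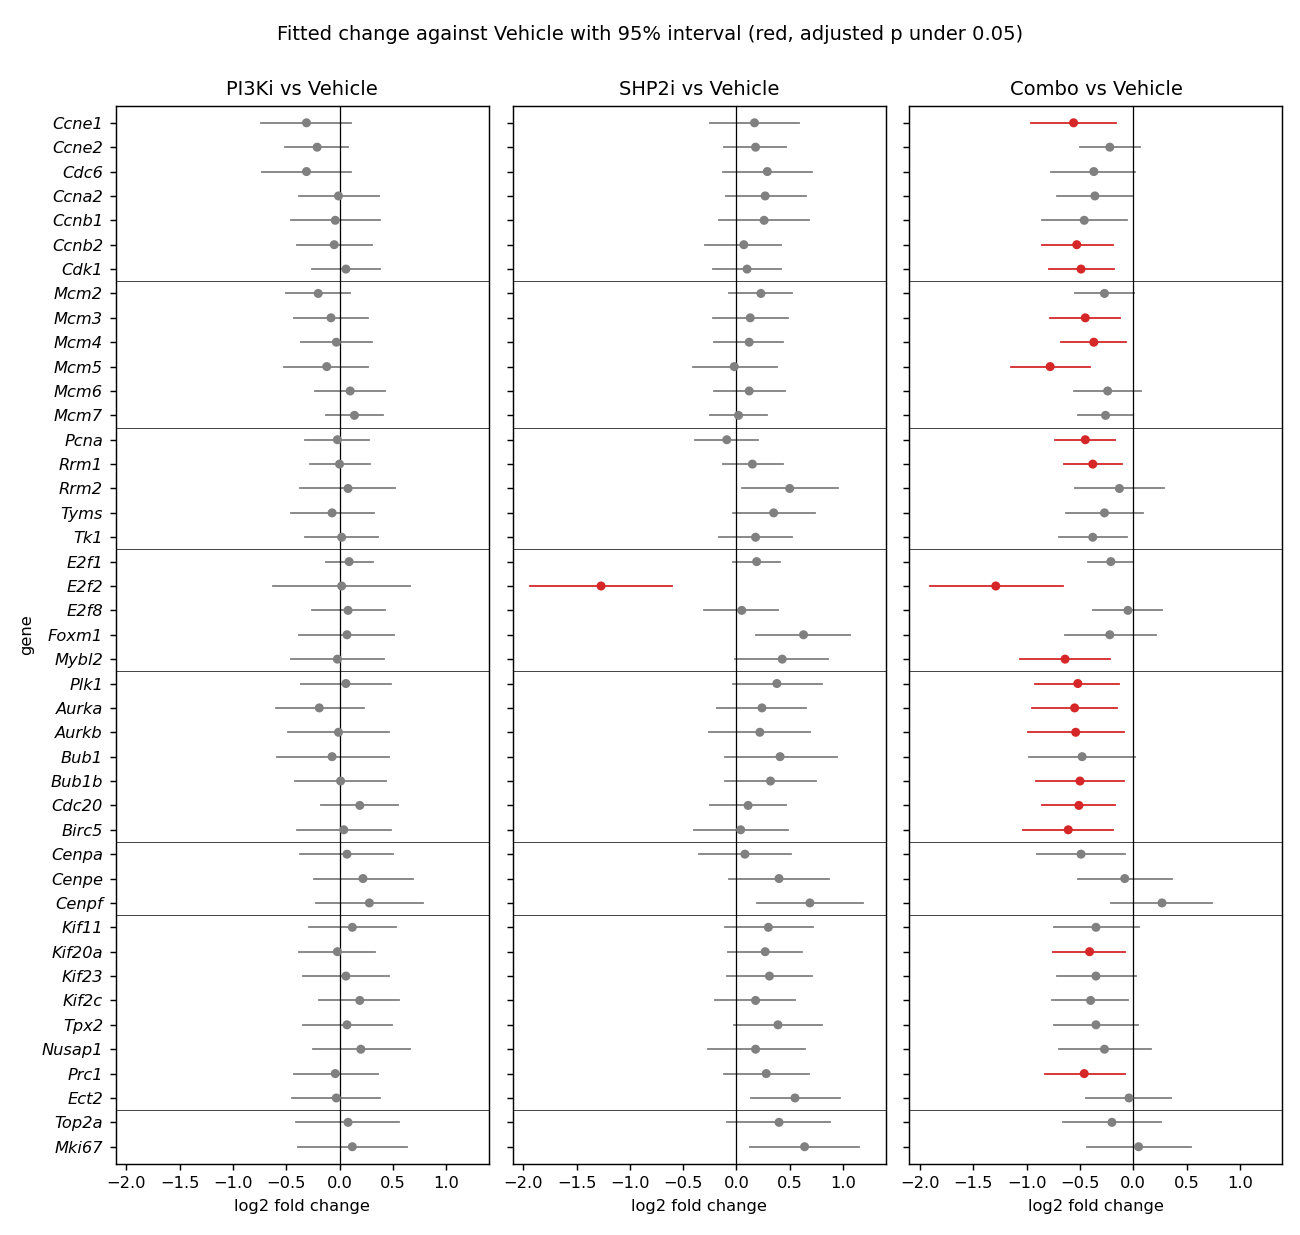
Fitted log2 fold change against Vehicle (points) with its 95% interval (lines) for each of the 43 genes in PI3Ki, SHP2i and Combo, in the order of their roles. Genes past an adjusted p under 0.05 are red, 0 in PI3Ki, 1 in SHP2i and 18 in Combo, all to the left of 0.

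Each count of a role group stands beside the same 19.7% of all genes tested. Most genes given with every tumor were those with the smallest p of their role group in this comparison, and thus not typical ones. Of the 7 genes of cyclins, CDK1 and origin licensing, 3 were lower in Combo than in Vehicle (Ccne1, Ccnb2 and Cdk1), and all 7 had log2 fold changes below 0, from -0.56 to -0.22. Cdk1 (GRCm38.p6 chromosome 10, 69335146 to 69352912), the kinase that drives entry into mitosis, was at 120, 123, 107, 116 and 101 CPM in Vehicle tumors 1 to 5 and at 117, 86.6, 75.7, 72.6 and 54.3 CPM in Combo tumors 1 to 5. Combo 1 lay among the Vehicle tumors and the other 4 Combo tumors below them. Its log2 fold change was -0.49 ± 0.143 (SE, edgeR adjusted p = 0.0115). Ccnb2, a mitotic cyclin partner of CDK1, was at 68.3, 65.3, 57.7, 63.6 and 58.9 CPM in Vehicle and at 63.4, 47.5, 46, 33.4 and 27.5 CPM in Combo. Again Combo 1 alone fell in the Vehicle range, and the log2 fold change was -0.53 ± 0.159 (edgeR adjusted p = 0.0128). Ccne1, cyclin E1 of the G1 to S transition, gave -0.56 ± 0.19 (edgeR adjusted p = 0.0247). Ccnb1 and Ccna2, the other G2 cyclins, did not pass, at -0.46 (95% interval -0.86 to -0.06) and -0.36 (-0.72 to -0.01), nor did Ccne2 (-0.22) or the licensing factor Cdc6 (-0.37).

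The MCM2 to MCM7 proteins form the ring that unwinds DNA at the replication fork, and 3 of the 6 genes were lower in Combo (Mcm3, Mcm4 and Mcm5). Mcm5 (chromosome 8, 75109468 to 75128439) was at 119, 126, 111, 135 and 124 CPM in Vehicle and at 86.2, 99.3, 66, 69.1 and 38.3 CPM in Combo. In PI3Ki it was at 101, 113, 133 and 105 CPM and in SHP2i at 123, 145, 118 and 101 CPM. Every Combo tumor was below every tumor of the 3 other groups. The means were 123 ± 8.81 CPM in Vehicle (SD, n = 5) and 71.8 ± 23 CPM in Combo (SD, n = 5), with a log2 fold change of -0.78 ± 0.177 (SE, edgeR adjusted p = 0.00202). Mcm3 was at 164, 157, 153, 180 and 162 CPM in Vehicle and at 150, 150, 97.6, 128 and 73.2 CPM in Combo. These groups did not overlap either, with Combo 1 and 2 close below Vehicle 3, and the log2 fold change was -0.45 ± 0.158 (edgeR adjusted p = 0.0282). Mcm4 passed more narrowly, at -0.37 ± 0.146 (edgeR adjusted p = 0.0468), while Mcm2, Mcm6 and Mcm7 had values of -0.27, -0.24 and -0.26 and did not pass (edgeR adjusted p from 0.0923 to 0.2).

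Of the 5 genes of the sliding clamp and of nucleotide synthesis, 2 were lower in Combo. Pcna (chromosome 2, 132249286 to 132253180), the clamp that holds DNA polymerase on its template, was at 247, 270, 239, 258 and 236 CPM in Vehicle and at 241, 198, 149, 192 and 135 CPM in Combo. All but Combo 1 were below the Vehicle tumors, and the log2 fold change was -0.45 ± 0.133 (edgeR adjusted p = 0.0112). Rrm1, the large subunit of ribonucleotide reductase, was at 124, 126, 123, 146 and 134 CPM in Vehicle and at 128, 116, 88, 94.9 and 74.8 CPM in Combo, with -0.38 ± 0.129 (edgeR adjusted p = 0.0244). Combo 1 lay in the Vehicle range and the other 4 below it. Its partner subunit Rrm2 had a value of -0.13 with an interval from -0.55 to 0.29. Thymidylate synthase (Tyms) was at -0.27 and thymidine kinase (Tk1) at -0.38, the latter just missing the threshold at an adjusted p of 0.0519 from edgeR.

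Of the 5 transcription factors, E2f2 and Mybl2 were lower in Combo. Mybl2 (chromosome 2, 163054327 to 163084688) encodes B-MYB, which acts with the MuvB core on G2 genes. It was at 45.2, 39.5, 40.4, 43.8 and 39.9 CPM in Vehicle and at 37.6, 37.6, 24.8, 19.9 and 13.9 CPM in Combo. In PI3Ki it was at 38.1, 38.2, 44.9 and 44 CPM and in SHP2i at 64.1, 52.3, 60.7 and 47.3 CPM. Combo was below all other tumors, and SHP2i was above all other tumors, without overlap. The log2 fold change of Combo was -0.64 ± 0.199 (edgeR adjusted p = 0.0151), and that of SHP2i was 0.43 ± 0.208 (edgeR adjusted p = 0.181), which did not pass.

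E2f2 (chromosome 4, 136172274 to 136196057), an activating E2F factor, had another pattern than the rest. It was at 11, 11.4, 10.6, 14.3 and 11.8 CPM in Vehicle and at 8.11, 13.1, 11.8 and 14.8 CPM in PI3Ki. In SHP2i it was at 4.91, 5.25, 5 and 4.43 CPM and in Combo at 4.81, 3.62, 9.38, 4.71 and 1.64 CPM. The 4 SHP2i tumors lay close together and below every tumor without SHP099, and so did all Combo tumors except Combo 3, which was above PI3Ki 1 and below all Vehicle tumors. The log2 fold change was -1.27 ± 0.318 in SHP2i (edgeR adjusted p = 0.016), -1.29 ± 0.295 in Combo (edgeR adjusted p = 0.00221) and 0.02 (95% interval -0.62 to 0.66) in PI3Ki. Combo and SHP2i differed by -0.02 with an interval from -0.68 to 0.64. Immune cell genes moved with these groups. The summed level of the macrophage genes was 660 to 1460 CPM in SHP2i beside 1910 to 2500 CPM in Vehicle. That of the B cell genes was 14.8 to 36 CPM beside 43 to 125 CPM. Combo 3, with the highest E2f2 of its group, had the highest sums of both in Combo (1330 and 638 CPM). Other Combo tumors did not follow this order. Combo 2, with a macrophage sum nearly as high, had E2f2 at 3.62 CPM. Combo 4, with the next highest B cell sum, had E2f2 at 4.71 CPM. The part of immune cells in the level of E2f2 was not tested. Without SHP2i 5, E2f2 did not pass in SHP2i.

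E2f1, the activator of S phase genes, was at 44.5, 43.9, 43.7, 44.5 and 38.6 CPM in Vehicle and at 39.8, 43.9, 31, 39.6 and 32.4 CPM in Combo, with a log2 fold change of -0.21 (edgeR adjusted p = 0.105) that did not pass. Combo 3 and 5 were below all Vehicle tumors and the other 3 among them. Foxm1, the forkhead factor of G2 genes, was at 81, 67.1, 65.1, 85.6 and 80.6 CPM in Vehicle, at 125, 117, 124 and 102 CPM in SHP2i and at 99.9, 78.8, 65.6, 43.9 and 38.1 CPM in Combo. All 4 SHP2i tumors exceeded all Vehicle tumors, and Combo tumors ran from above to below them. The value was 0.63 (95% interval 0.18 to 1.07, edgeR adjusted p = 0.0636) in SHP2i and -0.22 (-0.64 to 0.21) in Combo. E2f8, a repressor among the E2F factors, was at -0.05 in Combo.

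**Figure D4:**
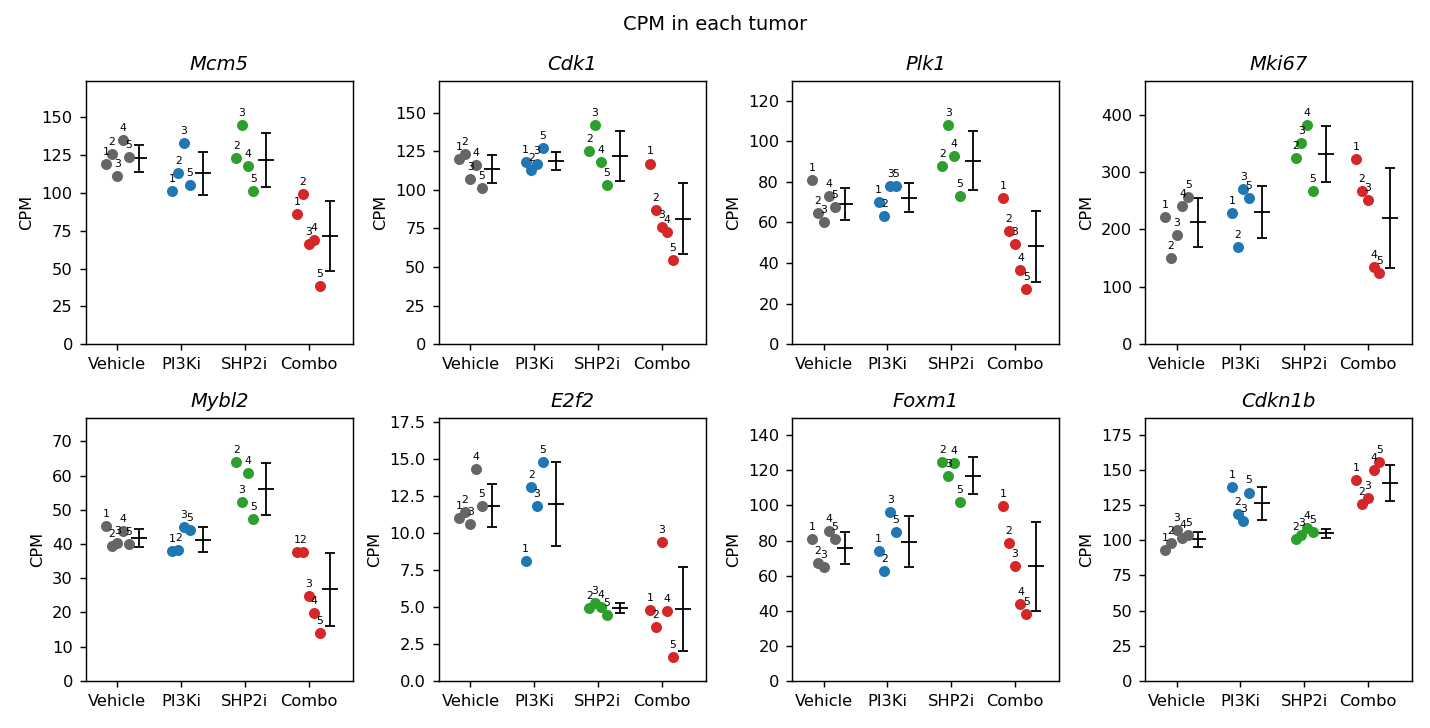
CPM in each tumor (points, numbered by replicate) by group, with mean ± SD (bars), for 7 of the 43 genes and the inhibitor gene Cdkn1b, each axis from 0. Mcm5 and Mybl2 in Combo lie below all other groups, E2f2 is low in SHP2i and Combo, and Mki67 and Foxm1 are high in SHP2i.

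The next role group held genes of mitotic kinases, the spindle checkpoint and the activator of the anaphase-promoting complex (APC). In the fit of all tumors it had the largest share of genes lower in Combo among the 8 role groups. There 6 of 7 passed (Plk1, Aurka, Aurkb, Bub1b, Cdc20 and Birc5), with values of all 7 from -0.61 to -0.48. In a fit of Vehicle and Combo alone, Plk1, Aurka, Aurkb and Bub1b did not pass, and the share was no longer the largest. Without Combo 4, Cdc20 alone of these 6 passed. Birc5, which encodes survivin of the chromosomal passenger complex, was at 74, 68.2, 56.3, 56 and 55.7 CPM in Vehicle and at 67.6, 40.5, 40.3, 30.6 and 24.2 CPM in Combo, with -0.61 ± 0.199 (edgeR adjusted p = 0.0198). Cdc20, which activates the anaphase-promoting complex, was at 89.1, 81.9, 78.4, 85.8 and 76.2 CPM in Vehicle and at 85.2, 62.9, 57.7, 44.5 and 37.9 CPM in Combo, with -0.51 ± 0.163 (edgeR adjusted p = 0.0169). In both genes Combo 1 lay in the Vehicle range and the other 4 Combo tumors below it. Plk1 and Aurka, kinases of centrosomes and spindle, were at -0.52 and -0.55, Aurkb, the passenger complex kinase, at -0.54, and the checkpoint gene Bub1b at -0.50. The checkpoint kinase gene Bub1 had a similar value, -0.48, with a larger SE of 0.237 and did not pass (edgeR adjusted p = 0.11).

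Of the 3 genes of centromere proteins, 0 passed in Combo by edgeR, and 1 (Cenpa) did at an unadjusted p under 0.05 and by DESeq2. Cenpa, the histone variant of centromeres, was at 89.9, 78.3, 66.9, 70.1 and 61.6 CPM in Vehicle and at 82.9, 52, 58.3, 36.5 and 31.4 CPM in Combo, with -0.49 ± 0.195 (edgeR adjusted p = 0.0509). Combo 1 lay in the Vehicle range and the other 4 below it. Cenpf, a kinetochore protein of G2 and mitosis, was at 120, 80.3, 100, 133 and 133 CPM in Vehicle and at 217, 164, 126, 87.7 and 86.4 CPM in Combo. Combo 1 and 2 exceeded all Vehicle tumors and the others lay in their range, with a log2 fold change of 0.27 and an interval from -0.21 to 0.74. The motor Cenpe was at -0.08 (-0.52 to 0.36).

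Of the 8 genes of spindle motors, microtubule binding and cytokinesis, 2 were lower in Combo (25%, near the 19.7% of all genes tested), and all 8 had values below 0, from -0.46 to -0.04. Prc1, which bundles microtubules of the central spindle, was at 105, 97.1, 90, 113 and 98.7 CPM in Vehicle and at 108, 86.7, 76.8, 49.9 and 46.6 CPM in Combo, with -0.46 ± 0.179 (edgeR adjusted p = 0.0484). Kif20a, a kinesin of cytokinesis, was at 104, 98.5, 89.8, 110 and 101 CPM in Vehicle and at 112, 84.6, 73.1, 56.5 and 52.2 CPM in Combo, with -0.41 ± 0.158 (edgeR adjusted p = 0.0421). In both, Combo 1 lay among or just above the Vehicle tumors and the other 4 below them. Kif11, Kif23, Kif2c, Tpx2 and Nusap1 had values from -0.40 to -0.27 and Ect2, the exchange factor that starts cytokinesis, had -0.04, none of which passed.

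Neither Top2a nor Mki67 passed in Combo by edgeR, DESeq2 or an unadjusted p under 0.05. Mki67, which encodes the proliferation marker Ki-67, was at 222, 150, 191, 241 and 256 CPM in Vehicle and at 323, 267, 251, 135 and 124 CPM in Combo. Combo 1 and 2 were above all Vehicle tumors and Combo 4 and 5 below them, so that the groups overlapped, at 212 ± 42.2 CPM and 220 ± 86.8 CPM (SD, n = 5 each). The log2 fold change was 0.05 with an interval from -0.43 to 0.54, and it became -0.12 without Combo 1, -0.03 without Combo 2 and -0.05 without Vehicle 2. Top2a, which untangles DNA before mitosis, was at 768, 681, 690, 900 and 753 CPM in Vehicle and at 1060, 810, 596, 448 and 377 CPM in Combo, with -0.20 (-0.66 to 0.26). Combo 1 was above all Vehicle tumors, Combo 2 among them and the other 3 below.

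Markers of other cells moved with the Combo group. At an adjusted p under 0.05 from edgeR, 8 of 10 macrophage genes, 6 of 10 neutrophil genes, 9 of 10 endothelial genes, 6 of 13 T and NK cell genes and 4 of 9 fibroblast genes were lower in Combo than in Vehicle, beside 19.7% of all genes tested. Of the same lists, 1 T and NK cell gene and 2 fibroblast genes were higher, beside 23.9% of all genes tested. Of 15 epithelial genes 3 were lower (20%, near the share of all genes tested) and 1 higher. The summed level of the macrophage genes was 342 to 1330 CPM in Combo and 1910 to 2500 CPM in Vehicle, that of the endothelial genes 211 to 285 and 492 to 612 CPM, and that of the epithelial genes 740 to 1130 and 833 to 1330 CPM. None of the macrophage, endothelial or epithelial genes was at 0 in any tumor. Combo 5 and 4, with the lowest levels of the 43 genes, also had the lowest macrophage sums (342 and 396 CPM), whereas Combo 1, with the highest, had a sum of 601 CPM, and Combo 2 and 3 had 1260 and 1330 CPM. The part of these cells in the levels of the 43 genes was not tested.

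**Figure D5:**
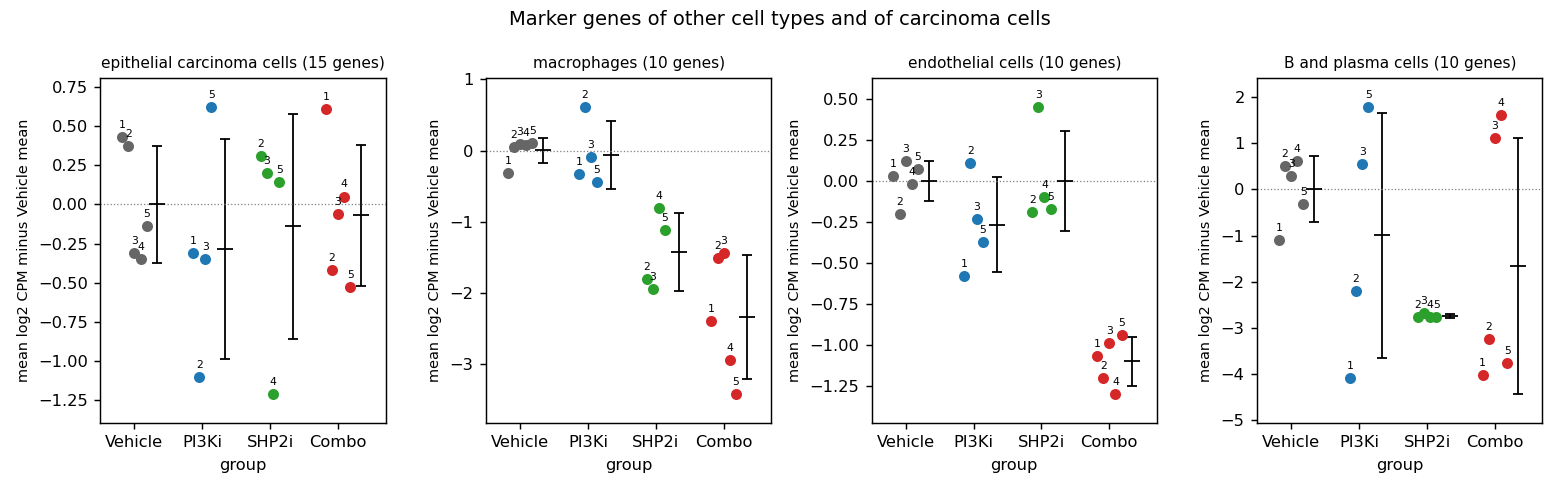
Mean log2 CPM minus the Vehicle mean in each tumor (points, numbered by replicate) for marker genes of carcinoma cells, macrophages, endothelial cells and B cells, with mean ± SD (bars). Macrophage and endothelial genes in the 5 Combo tumors lie below all Vehicle tumors, and B cell genes split the Combo group into tumors 3 and 4 and the rest.

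SHP2 inhibition alone was not accompanied by lower levels of most of these genes. In SHP2i against Vehicle, 0 of 43 genes were higher and 1 was lower (E2f2) at an adjusted p under 0.05 by edgeR, beside 5.05% higher and 6.54% lower of all genes tested. The 3 comparisons against Vehicle share their control tumors. Values were above 0 for 40 of the 43 genes, with a median of 0.23 beside 0.02 for all genes tested, and 5 genes were higher at an unadjusted p under 0.05 (14.5% of all genes tested). All 4 SHP2i tumors lay above all 5 Vehicle tumors for 6 genes (Tyms, Foxm1, Mybl2, Cenpf, Ect2 and Mki67), beside 8.6% of all genes tested, and below them for E2f2, beside 10.5%. E2f2 was also the only 1 of the 43 past an absolute log2 fold change of 1, beside 3.1% of all genes tested that were lower by this rule. The largest values were those of Cenpf (0.69, 95% interval 0.19 to 1.19), Mki67 (0.64, 0.13 to 1.15), Foxm1 (0.63, 0.18 to 1.07) and Ect2 (0.55, 0.14 to 0.97), with edgeR adjusted p from 0.0636 to 0.0922. Mki67 was at 325, 350, 382 and 267 CPM in the SHP2i tumors, all above the highest Vehicle tumor (256 CPM). MCM genes and Pcna were near Vehicle, with values from -0.02 to 0.23 for the 6 MCM genes and -0.09 for Pcna.

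The SHP2i calls depended on the model. DESeq2 called 3 genes higher (Foxm1, Cenpf and Ect2), and without SHP2i 5 edgeR called 0 in either direction. A fit of SHP2i and Vehicle alone, in which the wider spread of Combo has no part, called 12 higher. For these fits, too, the shares of all genes called are not given. Macrophage genes were lower in SHP2i than in Vehicle for 7 of 10, with sums of 660 to 1460 CPM, and 0 of 15 epithelial genes passed. Their part in these values was not tested.

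PI3K inhibition alone left the 43 genes near Vehicle. In PI3Ki against Vehicle, 0 of 43 genes passed in either direction by edgeR, beside 2.69% higher and 2.42% lower of all genes tested, and 0 did at an unadjusted p under 0.05 (10% higher and 9.49% lower of all genes tested) or by DESeq2. The values ran from -0.31 to 0.28 with a median of 0.02, beside 0.01 for all genes tested. Examples are Pcna (-0.02, 95% interval -0.32 to 0.28), Cdk1 (0.06, -0.26 to 0.38), Mcm5 (-0.12, -0.52 to 0.27) and Mki67 (0.12, -0.39 to 0.63). The lowest values were those of the G1 to S genes Ccne1 (-0.31, -0.74 to 0.11), Cdc6 (-0.31, -0.73 to 0.11) and Ccne2 (-0.21, -0.51 to 0.08). Cdc6 was at 26.4, 31, 37.4 and 28.9 CPM in PI3Ki and at 44.5, 39, 33.4, 41.7 and 33.2 CPM in Vehicle, with PI3Ki 3 among the Vehicle tumors and the other 3 below them. Small differences may have been missed with 4 and 5 tumors. In simulated counts for this comparison, changes were placed in genes drawn at random rather than in the 43, so that the rates need not hold for these. There 41.25% of genes changed by an absolute log2 value of 0.5 were recovered. Of those changed by 1, 82.5% were recovered.

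In the fit of all 18 tumors, Combo differed most from SHP2i. Of the 43 genes, 31 were lower in Combo than in SHP2i and 0 higher by edgeR, that is 72.1% beside 10.3% of all genes tested lower and 11.8% higher, with a median log2 fold change of -0.60 beside 0.03 for all genes tested. All 7 genes of mitotic kinases and checkpoint were among them, as were 6 of 7 of cyclins and licensing, 7 of 8 of spindle and cytokinesis, 4 of 6 MCM genes, 4 of 5 of clamp and nucleotides, 3 of 5 transcription factors, 0 of 3 centromere genes and neither Top2a nor Mki67. The centromere genes, Top2a and Mki67 had values from -0.60 to -0.42. Mybl2 (-1.07 ± 0.209, edgeR adjusted p = 0.00201) was the only 1 of these 43 past an absolute log2 fold change of 1 (3.13% of all genes tested were lower by this rule), followed by Plk1 (-0.91 ± 0.198, edgeR adjusted p = 0.0042). Plk1 was at 87.9, 108, 92.8 and 72.9 CPM in SHP2i and at 72, 55.8, 49.3, 36.4 and 27.4 CPM in Combo, with the highest Combo tumor just below the lowest SHP2i tumor. Groups did not overlap for 6 genes (Ccne1, Cdc6, Mcm5, Foxm1, Mybl2 and Plk1), beside 7.26% of all genes tested. The count of 31 became 14 without SHP2i 3, 18 without Combo 4, 8 without both Combo 3 and 4, and 3 when these groups alone were fitted. Fits of the compared groups alone called 10 in Combo against Vehicle and 3 against PI3Ki, so that the order by count did not hold there.

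Against PI3Ki, 14 of the 43 genes were lower in Combo and 0 higher by edgeR (17.8% of all genes tested were lower and 19.9% higher), with a median of -0.40 beside 0.01 for all genes tested and values below 0 for all 43. The 14 were Ccnb2, Cdk1, Mcm5, Mcm7, Pcna, Rrm1, E2f1, E2f2, Mybl2, Plk1, Cdc20, Birc5, Cenpa and Kif2c. E2f2 (-1.30) alone was past an absolute log2 fold change of 1 (8.36% of all genes tested were lower by this rule), and the next was Cdc20 (-0.70 ± 0.171, edgeR adjusted p = 0.00415), at 95.8, 81.6, 93.5 and 104 CPM in PI3Ki. Mcm5 and Mybl2 alone did not overlap between these groups, beside 11.2% of all genes tested. The count was 31 without Combo 1, 9 without PI3Ki 5, 8 without Combo 4, 7 without Combo 5, 4 without both Combo 3 and 4, and 3 in a fit of these groups alone.

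The single inhibitors differed in few of the genes. In SHP2i against PI3Ki, Cdc6 (0.60 ± 0.211, edgeR adjusted p = 0.0472), Ect2 (0.59 ± 0.208, edgeR adjusted p = 0.0479) and Mcm2 (0.43 ± 0.149, edgeR adjusted p = 0.0451) were higher and E2f2 was lower (-1.28 ± 0.33, edgeR adjusted p = 0.00983), beside 11.6% higher and 12.8% lower of all genes tested. By the fold limit of 1 only E2f2 passed (5.24% of all genes tested were lower by this rule). Cdc6 was at 49.9, 51.3, 44.4 and 41.9 CPM in SHP2i, all above the 4 PI3Ki tumors. The 3 higher calls were lost, and E2f2 kept, with upper quartile scaling, with either other filter on low counts, and without any of PI3Ki 1, 2 or 5 or SHP2i 2, 3 or 4.

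The interaction asks whether the log2 change of Combo differed from the sum of the changes of both single inhibitors. It was below 0 for all 43 genes, from -1.05 to -0.03 with a median of -0.65 beside 0.02 for all genes tested. At an adjusted p under 0.05 by edgeR 0 genes passed (1.61% of all genes tested were lower and 0.864% higher), and 31 were lower at an unadjusted p under 0.05 (9.66% of all genes tested). The smallest adjusted p were those of Mybl2 (-1.05, 95% interval -1.67 to -0.43, edgeR adjusted p = 0.0692) and Plk1 (-0.97, -1.55 to -0.38, edgeR adjusted p = 0.0785). DESeq2 called 4 genes lower (E2f1, Mybl2, Plk1 and Cdc20), and edgeR called 20 without Combo 1 and 1 without Combo 2. The shares of all genes called in these other fits are not given here. The value nearest 0 was that of E2f2 (-0.03, -0.95 to 0.89).

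Other genes of the cell cycle were taken from lists that do not hold the 43. Of 195 such genes tested, 67 were lower and 9 higher in Combo than in Vehicle by edgeR (34.4% and 4.62%, beside 19.7% and 23.9% of all genes tested), with a median of -0.29. In SHP2i 1 was lower and 2 higher (0.513% and 1.03%, beside 6.54% and 5.05%), with a median of 0.17. In PI3Ki 4 were lower and 0 higher (2.05% lower, near the 2.42% of all genes tested), with a median of 0.02. Against SHP2i, 97 were lower and 3 higher in Combo (10.3% and 11.8% of all genes tested), with a median of -0.48. By list, those lower in Combo than in Vehicle were 25 of 51 genes of replication origin and fork, 9 of 16 of G2 and mitotic exit, 9 of 22 of G1 and S phase control, 11 of 35 of the kinetochore, 6 of 21 of homologous recombination, 5 of 33 of the spindle and 2 of 17 of chromosome condensation. The shares of the spindle (15.2%) and condensation lists (11.8%) were under the 19.7% of all genes tested, and those of the other lists, from 28.6% to 56.2%, were over it.

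The leading genes of these lists were those with the smallest p in Combo against Vehicle, and thus not typical of their lists. Among them, Fen1, the flap endonuclease of lagging strands, was at 48.3, 51.1, 43.8, 49.9 and 43.6 CPM in Vehicle and at 33.4, 31, 26.5, 26.9 and 18.9 CPM in Combo, without overlap, with -0.79 ± 0.123 (edgeR adjusted p = 8.46e-05). Rpa1, a subunit of the single-strand binding protein, went the other way, at 167, 175, 172, 202 and 177 CPM in Vehicle and 325, 308, 218, 350 and 283 CPM in Combo, with 0.73 ± 0.122 (edgeR adjusted p = 0.000161). E2f4, a repressor E2F of resting cells, was lower in Combo (-0.46 ± 0.061, edgeR adjusted p = 2.27e-05), and Tfdp2, an E2F dimer partner, was higher (0.83 ± 0.119, edgeR adjusted p = 4.17e-05). Further genes lower in Combo were Lmnb1, lamin B1 (-0.60), Ube2s, a ubiquitin enzyme of the anaphase-promoting complex (-0.58), Rad51ap1 (-0.92) and Rmi1 (-0.45) of homologous recombination, Bub3 (-0.34) and Mad1l1 (-0.32) of the spindle checkpoint, Tacc3 of the spindle (-0.60), Sass6 of the centriole (-0.34) and the chromosome motor Kif22 (-0.54). The cohesin gene Smc3 was higher (0.21).

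Of 12 genes of CDK inhibitors and cell cycle exit, 2 were higher and 1 lower in Combo than in Vehicle, 3 higher in PI3Ki and 2 lower in SHP2i. In Combo the shares of 16.7% higher and 8.33% lower were under the 23.9% and 19.7% of all genes tested, whereas the 25% higher in PI3Ki and the 16.7% lower in SHP2i stood beside 2.69% and 6.54%. Cdkn1b, which encodes p27, was at 93.2, 98.3, 107, 102 and 104 CPM in Vehicle and 101, 104, 109 and 106 CPM in SHP2i, and at 138, 119, 114 and 134 CPM in PI3Ki and 143, 126, 130, 150 and 156 CPM in Combo. Each tumor with CLR457 was above each tumor without it. The values were 0.32 ± 0.0743 in PI3Ki (edgeR adjusted p = 0.0163), 0.48 ± 0.0704 in Combo (edgeR adjusted p = 4.71e-05) and 0.06 (edgeR adjusted p = 0.618) in SHP2i. Ccng2, cyclin G2 of resting cells, was likewise higher in PI3Ki (0.64 ± 0.0984, edgeR adjusted p = 0.00074) and Combo (0.50 ± 0.0935, edgeR adjusted p = 0.000439). Cdkn1a, which encodes p21, was at 54.4, 47.1, 45.8, 43.2 and 41.1 CPM in Vehicle and 26.3, 24.1, 34, 22.4 and 14.5 CPM in Combo, with -0.93 ± 0.204 (edgeR adjusted p = 0.00153). Ccnd1, cyclin D1 of G1, was at 0.00 in Combo with an interval from -0.25 to 0.26. The other D cyclins were added after their values were seen. Ccnd2 was at 46.1, 50.2, 47.4, 75.3 and 63.5 CPM in Vehicle. It was at 28.9, 31.1, 41.2 and 29.4 CPM in PI3Ki and 22.1, 15.1, 30.2 and 27.5 CPM in SHP2i, below all Vehicle tumors. In Combo it was at 12.8, 26.4, 59.4, 21.6 and 9.92 CPM, with only Combo 3 in the Vehicle range. Combo 3 also had the highest macrophage and B cell sums of its group (1330 and 638 CPM). The part of immune cells in the level of Ccnd2 was not tested. Ccnd3 overlapped with Vehicle in each treated group.

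The promoter letters described above can be set beside these results, without a test. Of the 18 genes lower in Combo than in Vehicle, 15 had a promoter in the table, of which 8 held the CHR element (53.3%) and 5 the E2F element (33.3%). Of the other 21 with a promoter, 12 held the CHR element (57.1%) and 8 the E2F element (38.1%). The other 4 of the 15 (Mybl2, Birc5, Ccne1 and Pcna) held neither of these in their windows.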

How the data were processed

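RNA was sequenced from frozen 4T1 tumors (5 Vehicle, 4 PI3Ki, 4 SHP2i and 5 Combo) after poly(A) selection, with directional libraries read from both ends. The deposited values are raw counts per Entrez gene. Per the labels and the methods of the study, the authors trimmed reads with cutadapt, aligned them with STAR to GRCm38 and counted with QuasR; versions, annotation and strand setting are not given in the sources used here. Of 22792 identifiers, 22760 matched a RefSeq symbol, and the other 32 held 0.0193% of counts. Totals per tumor were 21.16 M to 26.62 M.

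Genes were filtered with filterByExpr (minimum count 10, minimum total 15), leaving 15282, scaled by TMM and fitted with the quasi-likelihood test of edgeR 4.0.16 (R 4.3.3) with 1 mean per group over all 18 tumors; p-values were adjusted by Benjamini-Hochberg over all genes tested. SEs were derived from the F statistic. Log2 CPM used a prior count of 2. Each p-value judges a difference between group means against a spread estimated for each gene over all 18 tumors and shared by all groups. The median SD of log2 CPM of the 43 genes was 0.12 in Vehicle, 0.15 in PI3Ki, 0.22 in SHP2i and 0.52 in Combo. Comparisons without Combo were thus judged in part against its wider spread. Those with Combo were judged in part against the narrower spread of groups not compared. Fits of the compared groups alone do not share spread in this way. The 43 genes, the role groups and the other lists were chosen with earlier results of these data known. Given in full were Cdk1, Ccnb2, Mcm3, Mcm5, Pcna, Rrm1, E2f1, E2f2, Foxm1, Mybl2, Cdc20, Birc5, Cenpa, Cenpf, Kif20a, Prc1, Top2a and Mki67 by the rule for named genes. This rule took the 2 genes of each role group with the smallest p in Combo against Vehicle, and Mki67, Pcna, E2f1, Foxm1 and Mybl2. From each other list it took the 2 genes with the smallest p there, and in addition Cdkn1a, Cdkn1b and Ccnd1. Genes picked by that test do not stand for typical genes of their lists. Plk1, Cdc6 and Ccne1, and Ccnd2 and Ccnd3 from the other lists, were added after their values were seen. Alternatives were other scalings and filters, DESeq2 1.42.0, a replicate block, the compared groups alone, a fold limit and leaving out tumors; the fits were tested on simulated data.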

Additional observations from a re-analysis of the deposited data

Results flagged for a closer look

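Among 84 groups of 4 or 5 tumors tested for a tumor far from the rest of its group, of which chance gives about 5 percent, 3 held such a value. Rrm1 was at 157 CPM in PI3Ki 3 and at 120 to 125 CPM in the other PI3Ki tumors. Prc1 was at 77.5 CPM in PI3Ki 2 and at 103 to 107 CPM in the others. E2f1 was at 38.6 CPM in Vehicle 5 and at 43.7 to 44.5 CPM in the others.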

How the results depend on the processing

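The median log2 fold change of the 43 genes kept its direction under each alternative run in every comparison but PI3Ki against Vehicle, where it stayed near 0 and changed sign (0.02, range -0.04 to 0.05 when 1 tumor was left out, and -0.03 with total counts without scaling factors). PI3Ki against Vehicle called 0 genes under each alternative run. The other counts of genes called moved. With the compared groups alone they were 13 in SHP2i against Vehicle, 10 in Combo against Vehicle, 3 in Combo against PI3Ki, 3 in Combo against SHP2i and 10 in SHP2i against PI3Ki. Without Combo 3 and 4, an alternative chosen after seeing the data, they were 3, 4 and 8 in Combo against Vehicle, PI3Ki and SHP2i. With an absolute log2 fold change over 1 in addition, PI3Ki against Vehicle and the interaction had 0 and each other comparison had 1. DESeq2 called 4 in SHP2i against Vehicle and 4 for the interaction. In SHP2i against PI3Ki, upper quartile scaling, no filter, and CPM over 1 in at least 4 tumors each left 1. Leaving out 1 tumor gave 8 to 31 in Combo against Vehicle, 7 to 31 against PI3Ki, 14 to 40 against SHP2i, 1 to 4 in SHP2i against PI3Ki, 0 to 1 in SHP2i against Vehicle and 0 to 20 for the interaction. The direction reversed for Mki67 in Combo against Vehicle, at -0.05 without Vehicle 2, -0.12 without Combo 1 and -0.03 without Combo 2 (range -0.12 to 0.20). The cause was not tested.

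The labels used here do not say whether tumors with the same replicate number were handled together. Of 24 pairs with the same number, 8 had correlated deviations over 0.1 (range -0.42 to 0.33, median 0.02). Of 97 other pairs, 27 did (median -0.01). Such correlations cannot show how the tumors were handled. With the replicate block the counts were 0, 1 and 22 in PI3Ki, SHP2i and Combo against Vehicle, 15 and 33 in Combo against PI3Ki and SHP2i, 3 in SHP2i against PI3Ki and 0 for the interaction.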
